A study of Homo sapiens with 3 samples.

Results

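The genes described here act in the repair of DNA double-strand breaks and, through the Fanconi pathway, of interstrand crosslinks. The set was defined by name and holds 43 genes, of 19775 genes that had a probe set with a single symbol on the arrays. For each gene the probe set with the highest mean signal over the 3 arrays was used. Of the 43 genes, 37 had such a probe set and 36 were tested, which required a signal above the array's median on at least 1 array. XRCC3, a homologous recombination gene, was at or under the floor of 41.2 on every array and was not tested. ATRIP and NHEJ1 were covered by probe sets with several symbols, and BRCA2, RBBP8, FANCA and FANCD2 had no probe set of their single symbol, so these 6 genes were not analysed here.

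Broken DNA ends are recognised by the complex of MRE11, RAD50 and NBN, which activates the kinase ATM, whereas single-stranded DNA activates ATR. Phosphorylated histone H2AX then recruits MDC1 and the ubiquitin ligases RNF8 and RNF168, and the balance of TP53BP1 and BRCA1 on this chromatin steers the break to end joining or to homologous recombination. In B-lineage cells end joining also completes V(D)J and class switch recombination, and myeloma translocations such as t(4;14) arise from misjoined breaks.

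The cells were KMS11, an established human multiple myeloma line with t(4;14), in which the translocation drives MMSET (NSD2), a methyltransferase of histone H3 lysine 36. RNA was taken at 48 h from the start of infection with lentiviral hairpins, of which the first 24 h were in the virus mixture. The groups were the MMSET hairpin shMMSET#2, the MMSET hairpin shMMSET#4 and the control hairpin shLuc, with 1 array each, and all 3 groups had been infected in the presence of polybrene. No hairpin had a replicate, so differences carry no p-value, and "higher" and "lower" describe these 3 arrays by size. Cells without virus were not analysed here.

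NSD2 had signals of 7032 with shMMSET#2 and 7476 with shMMSET#4, against 10300 with shLuc, on its brightest probe set. Of 6 NSD2 probe sets, 6 were lower with shMMSET#2 and 5 with shMMSET#4, with median log2 ratios of -1.33 and -0.48. All 11 plasma cell and t(4;14) markers, among them SDC1, IRF4 and FGFR3, exceeded the median signal on every array. So did the T cell gene CD3E, the epithelial genes EPCAM, KRT8 and KRT18 and the erythroid gene HBB. CD3D exceeded it on 1 array, and CD3G and the monocyte markers CD14 and LYZ on none. Exceeding the median thus did not separate the cell types. The median signal was 62.0 with shMMSET#2 and 59.5 with shMMSET#4, against 77.4 with shLuc. The 3' to 5' difference of ACTB, a measure of RNA integrity, was 1.14 on the log2 scale with each MMSET hairpin, against 1.70 with shLuc. That of GAPDH was 0.10 with shMMSET#2 and 0.00 with shMMSET#4, against 0.04 with shLuc, and showed no such gap. The part of the ACTB difference in the ratios below was not tested. Between the MMSET hairpin arrays 95% of tested genes lay within 2.37-fold, and this served as the only available measure of spread. By decile of mean signal it ran from 1.85-fold to 2.95-fold.

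More repair genes had higher than lower signals with the MMSET hairpins, set against shLuc. In bulk RNA, a change in the mix of cells and a change in RNA per cell cannot be told apart. At a threshold of 1.5-fold, 11 of 36 genes were higher with shMMSET#2 and 3 were lower, against 16.2% and 22.5% of the 13296 tested genes. With shMMSET#4, 10 were higher and 2 were lower, against 17.3% and 20.6% of tested genes. The median log2 ratio of the 36 genes was 0.31 with each hairpin, against -0.04 and -0.02 over all tested genes. By any amount 25 of the 36 were higher with shMMSET#2 and 24 with shMMSET#4, against 46.1% and 47.3% of all tested genes. Among the 3498 tested genes with a mean signal between the members' quartiles, these shares were 53.1% and 51.4%. At 1.5-fold, 641 of these 3498 genes were higher and 559 lower with shMMSET#2. With shMMSET#4, 626 of them were higher and 490 lower.

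Both ratios use the same shLuc array, so their agreement is no independent support. MRE11, DNA2, ATR, RAD51C and XRCC4 passed 1.5-fold upward with each hairpin, and RAD54B was at least 1.5-fold lower with each. These are 5 and 1 of 36 genes, beside 8.6% and 11.9% of tested genes past the same size. At 2-fold with each hairpin only MRE11 was higher and RAD54B lower, beside 2.83% and 4.35% of tested genes. The members nearest to the 1.5-fold threshold were XRCC4 inside it, with a smaller ratio of 1.59-fold, and FANCG outside it, with 1.48-fold. Only MRE11 differed from shLuc with both hairpins by more than the 95% spread of its signal decile.

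The repair genes were bright, with 30 of 36 in the brightest 5 deciles of tested genes. Among the 3498 tested genes whose mean signal lay between the members' quartiles (610 to 2271), 10.5% passed 1.5-fold upward with both hairpins and 6.72% downward, with median log2 ratios of 0.05 and 0.02. The scaling of the arrays also moved the counts. Scaling every array to the same median signal brought the median of all tested genes to 0.25 with shMMSET#2 and 0.34 with shMMSET#4, and 19 repair genes were then higher with both hairpins and 1 was lower, beside 19.7% and 5.28% of tested genes. The median of the repair genes exceeded that of all tested genes by 0.35 with shMMSET#2 and 0.34 with shMMSET#4 as deposited, by 0.37 and 0.35 after median scaling, and by 0.27 and 0.25 after quantile normalization. Median scaling turned 6 genes from below to above shLuc with shMMSET#2 and 8 with shMMSET#4, none of which had passed 1.5-fold there.

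**Figure D1:**
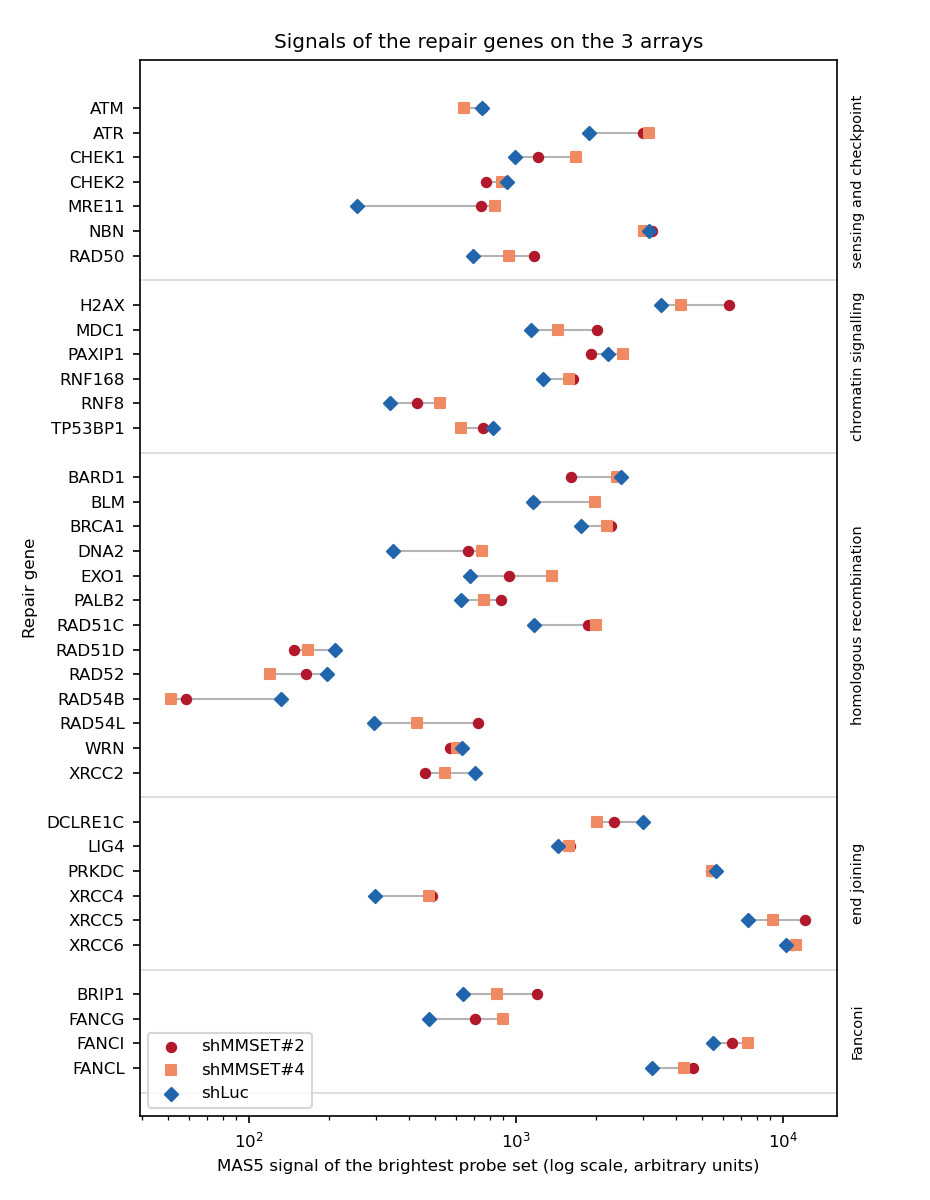
MAS5 signal of the brightest probe set (horizontal axis, log scale) of the 36 tested repair genes, with shMMSET#2 (circles), shMMSET#4 (squares) and shLuc (diamonds), 1 array each, grouped by role. MRE11 shows the widest gap upward from shLuc (743 and 840 with the MMSET hairpins, against 254.6 with shLuc) and RAD54B the widest downward (58.4 and 51.2, against 132.1).

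Among sensors and checkpoint kinases, MRE11 stood out. MRE11, the nuclease of the break-sensing complex, had signals of 743 with shMMSET#2 and 840 with shMMSET#4, against 254.6 with shLuc. Both MMSET hairpin arrays were far above the control array, 2.92-fold and 3.30-fold, and they lay within 1.13-fold of each other. This rests on 1 probe set. The other 2 tested MRE11 probe sets were dim, with log2 ratios of 0.23 and -0.01 with shMMSET#2 and -0.11 and 0.54 with shMMSET#4.

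The partners of MRE11 differed from it. RAD50, the ATPase that tethers the ends, had signals of 1173 with shMMSET#2 and 943 with shMMSET#4, against 691 with shLuc, which is 1.70-fold and 1.37-fold higher. Its other 2 tested probe sets were lower with shMMSET#4, with log2 ratios of -0.27 and -0.05. NBN, which links the complex to ATM, had 3232 with shMMSET#2 and 3027 with shMMSET#4, against 3150 with shLuc. Its 3 arrays were thus within 1.07-fold of one another.

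Of the kinases, ATR and CHEK1 had higher signals, and ATM and CHEK2 stayed within 1.5-fold on their brightest probe sets. ATR, the kinase of stalled forks and resected ends, had signals of 3005 with shMMSET#2 and 3153 with shMMSET#4, against 1887 with shLuc. A second ATR probe set showed a larger difference, with 1199 and 1359 against 630.1, so both probe sets were higher with both hairpins. CHEK1, the effector kinase of ATR, had 1207 with shMMSET#2 and 1681 with shMMSET#4, against 998 with shLuc. The ratio was 1.21-fold for shMMSET#2 and 1.68-fold for shMMSET#4, and all 3 tested CHEK1 probe sets pointed the same way. ATM, the kinase of double-strand breaks, had 750 with shMMSET#2 and 641 with shMMSET#4, against 748 with shLuc. Dimmer ATM probe sets passed 1.5-fold in opposite directions. One was 1.53-fold higher with shMMSET#2 and another 1.66-fold lower with shMMSET#4. CHEK2, the effector kinase of ATM, had 775 and 886 against 929 with shLuc.

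The promoters of the genes that were higher with both hairpins are shown because they let a reader look for shared elements. They come from RefSeq (GRCh38.p14), 250 bases before to 50 after the start, and are printed on the gene's strand. DNA2 has no window in the table. Capitals mark CCAAT, the binding word of NF-Y, on either strand. The windows are chr11:94493795-94494094 on the minus strand for MRE11, chr3:142578684-142578983 on the minus strand for ATR, chr17:58692323-58692622 on the plus strand for RAD51C, the first of 2 overlapping windows, and chr5:83077297-83077596 on the plus strand for XRCC4.
MRE11: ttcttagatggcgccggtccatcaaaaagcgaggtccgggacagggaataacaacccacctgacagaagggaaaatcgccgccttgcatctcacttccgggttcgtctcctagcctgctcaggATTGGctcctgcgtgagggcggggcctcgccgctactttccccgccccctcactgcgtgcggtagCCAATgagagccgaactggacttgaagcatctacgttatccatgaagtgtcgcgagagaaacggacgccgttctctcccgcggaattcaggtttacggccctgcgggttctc
ATR: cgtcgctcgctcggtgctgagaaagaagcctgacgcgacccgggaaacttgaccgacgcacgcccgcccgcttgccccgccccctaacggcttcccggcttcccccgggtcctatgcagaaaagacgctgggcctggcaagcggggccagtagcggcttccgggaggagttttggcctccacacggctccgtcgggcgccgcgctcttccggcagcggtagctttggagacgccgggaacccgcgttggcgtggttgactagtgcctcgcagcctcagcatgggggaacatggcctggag
RAD51C: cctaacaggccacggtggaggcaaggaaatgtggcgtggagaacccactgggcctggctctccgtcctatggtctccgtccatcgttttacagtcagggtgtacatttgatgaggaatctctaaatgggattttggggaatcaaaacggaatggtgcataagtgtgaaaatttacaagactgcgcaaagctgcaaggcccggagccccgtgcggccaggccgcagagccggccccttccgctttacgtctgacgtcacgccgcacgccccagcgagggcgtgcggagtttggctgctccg
XRCC4: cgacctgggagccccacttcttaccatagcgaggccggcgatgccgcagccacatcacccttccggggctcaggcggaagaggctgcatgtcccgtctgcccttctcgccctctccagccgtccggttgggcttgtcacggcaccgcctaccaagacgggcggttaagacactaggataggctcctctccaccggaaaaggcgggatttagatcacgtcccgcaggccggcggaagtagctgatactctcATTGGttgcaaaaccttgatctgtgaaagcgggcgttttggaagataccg

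MRE11 held CCAAT at -62 to -58 and its reverse complement at -127 to -123, counted from the start. XRCC4 held the reverse complement at 1 to 5, and ATR and RAD51C held none. The windows were also searched on both strands for the E2F words TTTCGCGC, TTTGGCGC, TTTCCCGC and TTTGCCGC, bound by the E2F factors of the G1/S transition, and for the CHR word TTTGAA of late cell cycle genes. None of the 4 windows held either, and no marked words overlapped. Of 28 tested repair genes with a window, 17 held CCAAT (60.7%, against 39.7% of all 27305 genes with a window), 3 held an E2F word (10.7%, against 3.99%) and 4 held the CHR word (14.3%, against 18.2%). The E2F words were in windows of EXO1, XRCC2 and XRCC6. Among the 14 genes with a window that passed 1.5-fold upward with at least 1 hairpin, 9 held CCAAT and 1 held an E2F word, and among the other 14 the numbers were 8 and 2. These matches describe letters and not bound sites.

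The 6 genes of chromatin signalling at breaks had median log2 ratios of 0.36 with shMMSET#2 and 0.29 with shMMSET#4. Of these, 0 passed 1.5-fold with both hairpins, which is near the 8.6% (higher) and 11.9% (lower) of tested genes for so few genes. H2AX, the histone variant that is phosphorylated around breaks, had signals of 6308 with shMMSET#2 and 4173 with shMMSET#4, against 3498 with shLuc. Its ratio was 1.80-fold for shMMSET#2 and 1.19-fold for shMMSET#4, and the 2 other tested H2AX probe sets were higher with shMMSET#2 and slightly lower with shMMSET#4 (log2 ratios of -0.08 and -0.21). MDC1, which binds phosphorylated H2AX, had 2021 and 1436 with the same hairpins, against 1138 with shLuc. This was 1.78-fold and 1.26-fold higher.

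Of the ubiquitin ligases that act after MDC1, RNF8 was 1.27-fold and 1.54-fold higher (signals of 429 with shMMSET#2 and 522 with shMMSET#4, against 339 with shLuc). RNF168, which extends the ubiquitin mark, was 1.30-fold and 1.25-fold higher (1644 and 1579, against 1267). TP53BP1, which shields ends from resection, had 752 and 626 against 820 with shLuc, and its log2 ratios were -0.13 and -0.39. A dim TP53BP1 probe set had a log2 ratio of 0.99 with shMMSET#2. PAXIP1, a partner of TP53BP1, had 1908 with shMMSET#2 and 2517 with shMMSET#4, against 2211 with shLuc, so the hairpins lay on opposite sides of the control and within 1.32-fold of each other. Median scaling put both above it, with a log2 ratio of 0.11 for shMMSET#2.

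The 13 tested genes of homologous recombination are described singly, since their counts were near those of all genes. With both hairpins 2 passed 1.5-fold upward, 1 downward and 10 neither, beside 8.6% and 11.9% of tested genes, with median log2 ratios of 0.00 with shMMSET#2 and 0.29 with shMMSET#4. The resection enzymes were higher. DNA2, a nuclease and helicase of long-range resection, had signals of 663 with shMMSET#2 and 746 with shMMSET#4, against 346 with shLuc, which is 1.92-fold and 2.16-fold higher. EXO1, the other long-range nuclease, had 942 and 1371 against 675 with shLuc. The ratio was 1.40-fold for shMMSET#2 and 2.03-fold for shMMSET#4.

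BLM and WRN are RecQ helicases with different patterns. BLM had signals of 1161 with shMMSET#2 and 1986 with shMMSET#4, against 1157 with shLuc, so that the shMMSET#4 array alone stood apart, 1.72-fold above shLuc. WRN had 570 and 605 against 629 with shLuc, within 1.11-fold on all 3 arrays.

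BRCA1, which promotes resection and loads PALB2, had 2282 with shMMSET#2 and 2192 with shMMSET#4, against 1754 with shLuc. Its brightest probe set was thus 1.30-fold and 1.25-fold higher, and a dimmer one had log2 ratios of -0.03 and 0.00. PALB2, which bridges BRCA1 and BRCA2, had 881 and 764 against 623 with shLuc. BARD1, the obligate partner of BRCA1, had 1613 with shMMSET#2 and 2388 with shMMSET#4, against 2486 with shLuc. It was 1.54-fold lower with shMMSET#2 and within 1.04-fold of the control with shMMSET#4, and a dimmer BARD1 probe set was higher with both (log2 ratios of 0.29 and 0.65).

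RAD51C, RAD51D and XRCC2, which act in strand invasion, differed in direction. RAD51C had signals of 1866 with shMMSET#2 and 2000.1 with shMMSET#4, against 1173 with shLuc, and its 2 probe sets were both higher with both hairpins. RAD51D had 148 and 167 against 210 with shLuc, which is 1.42-fold and 1.26-fold lower. XRCC2 had 458 and 543 against 706 with shLuc, which is 1.54-fold and 1.30-fold lower, on a probe set ending in _x_at, a class that can hybridise with other transcripts. Median scaling took the log2 ratios with shMMSET#4 to 0.05 for RAD51D and 0.00 for XRCC2, beside 0.34 for all tested genes.

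RAD54L and RAD54B encode related motor proteins that drive strand exchange. RAD54L had 722 with shMMSET#2 and 426 with shMMSET#4, against 294 with shLuc, which is 2.46-fold and 1.45-fold higher. RAD54B had 58.4 and 51.2 against 132.1 with shLuc, which is 2.26-fold and 2.58-fold lower. RAD54B passed the filter on dim genes through the shLuc array alone, so a lower value with the hairpins was built into its inclusion, and a floor at the 60th percentile of signals took its log2 ratio to -0.17 with each hairpin. RAD52, an annealing protein, had 164 and 120.3 against 197 with shLuc. It was 1.64-fold lower with shMMSET#4, and its tested probe sets disagreed in sign.

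**Figure D2:**
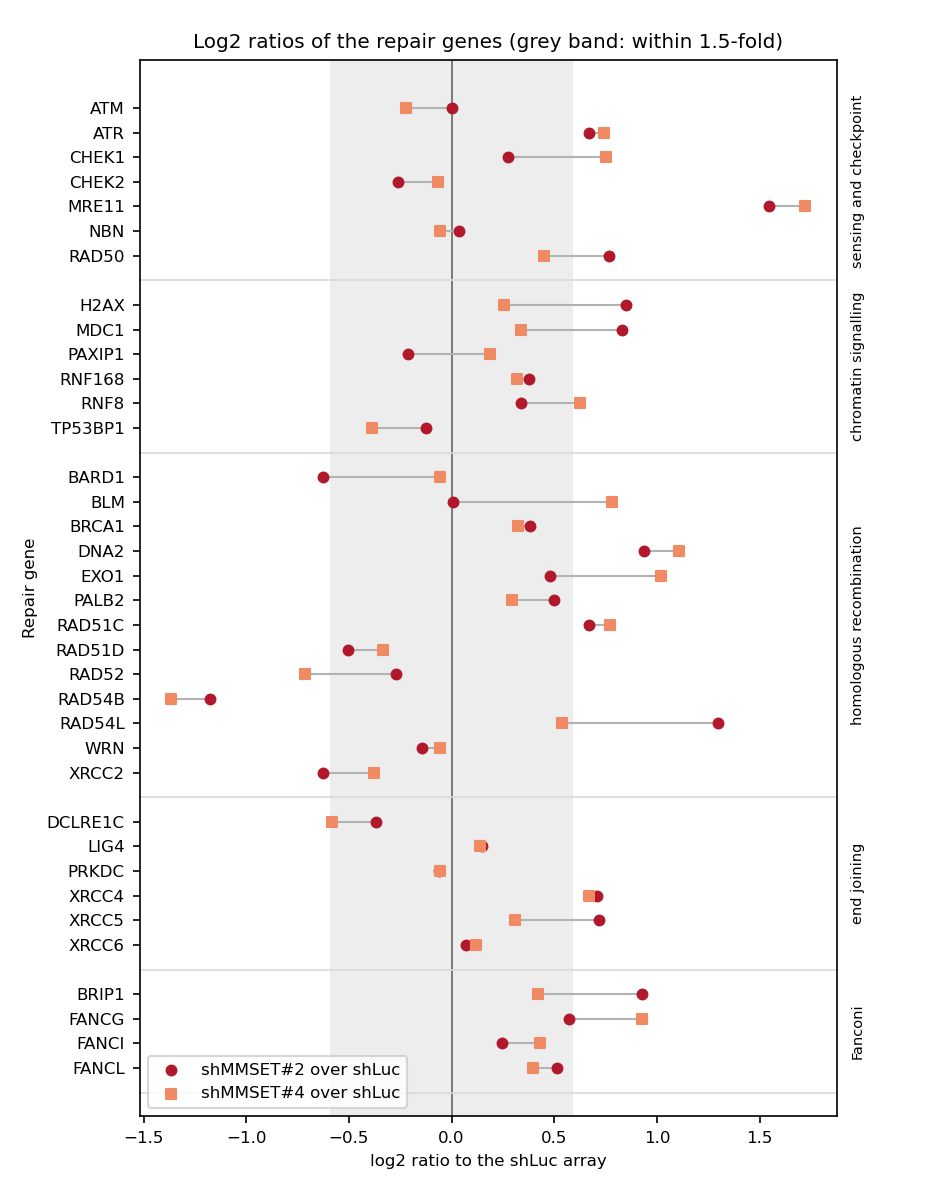
Log2 ratio to the shLuc array (horizontal axis) of the 36 tested repair genes with shMMSET#2 (circles) and shMMSET#4 (squares), grouped by role, with a grey band for ratios within 1.5-fold. MRE11, DNA2, ATR, RAD51C and XRCC4 have both symbols right of the band and RAD54B has both left of it. The 4 Fanconi genes all lie right of 0, as do 32.2% of all tested genes with both hairpins.

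Of 6 tested end joining genes, 1 passed 1.5-fold upward with both hairpins and XRCC5 with shMMSET#2 alone, beside 8.6% of tested genes with both. XRCC4, the scaffold of DNA ligase IV, had signals of 487 with shMMSET#2 and 474 with shMMSET#4, against 298 with shLuc. This is 1.63-fold and 1.59-fold higher, and the 3 tested XRCC4 probe sets were all higher with both hairpins. LIG4, the ligase itself, had 1600 and 1589 against 1442 with shLuc. LIG4 was thus within 1.11-fold of the control with both hairpins on its brightest probe set. A dimmer LIG4 probe set had log2 ratios of 0.31 with shMMSET#2 and -0.49 with shMMSET#4.

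The Ku heterodimer has a pair of subunits. XRCC5, which encodes Ku80, had 12162 with shMMSET#2 and 9170 with shMMSET#4, against 7397 with shLuc, which is 1.64-fold and 1.24-fold higher. A second bright XRCC5 probe set was at log2 ratios of 0.27 and -0.02 and a dim one was lower, at -0.68 and -0.52. XRCC6, which encodes Ku70, had 10802 and 11196 against 10307 with shLuc. PRKDC, the catalytic subunit of the kinase that Ku recruits, had 5403 and 5420 against 5634 with shLuc. XRCC6 and PRKDC were within 1.09-fold of the control. DCLRE1C, the Artemis nuclease that opens hairpin ends, had 2328 with shMMSET#2 and 2010 with shMMSET#4, against 3007 with shLuc, which is a log2 ratio of -0.37 and -0.58, the second just short of the threshold, on an _x_at probe set.

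All 4 tested genes of the Fanconi pathway were higher than shLuc with both hairpins by some amount. The same held for 32.2% of all tested genes and for 38.7% of those with a mean signal between the members' quartiles. With both hairpins 0 passed 1.5-fold, which is near the share of tested genes for so few genes. FANCG, a core complex subunit, had signals of 703 with shMMSET#2 and 900.4 with shMMSET#4, against 474 with shLuc, which is 1.48-fold and 1.90-fold higher. BRIP1, the helicase FANCJ that binds BRCA1, had 1207 and 850 against 634 with shLuc. The ratios were 1.90-fold for shMMSET#2 and 1.34-fold for shMMSET#4, and its dimmer probe set gave 2.63-fold and 1.05-fold. FANCL, the ubiquitin ligase of the core complex, was 1.43-fold and 1.32-fold higher (4609 and 4257, against 3231). FANCI, which is ubiquitinated together with FANCD2, was 1.18-fold and 1.35-fold higher (6489 and 7390, against 5481), and its 3 tested probe sets were all higher with both hairpins.

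Set directly against each other, the MMSET hairpins gave few large differences in these genes. The log2 ratio of shMMSET#4 to shMMSET#2 had a median of 0.00 over the 36 genes and ran from -0.76 to 0.77. At 1.5-fold, BLM was higher with shMMSET#4 (1.71-fold), and RAD54L (1.70-fold) and H2AX (1.51-fold) were lower with shMMSET#4. These are 1 and 2 of 36 genes, beside 16.9% and 13.6% of tested genes. RAD50, MDC1, H2AX, RAD54L, XRCC5 and BRIP1 passed 1.5-fold against shLuc with shMMSET#2 and not with shMMSET#4, and CHEK1, RNF8, BLM, EXO1 and FANCG did so with shMMSET#4 and not with shMMSET#2. Except for BLM, RAD54L and H2AX, the hairpin arrays were within 1.5-fold of each other for each of these genes. Of all tested genes, 16.2% were at least 1.5-fold higher than shLuc with shMMSET#2, 17.3% with shMMSET#4 and 8.6% with both.

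**Figure D3:**
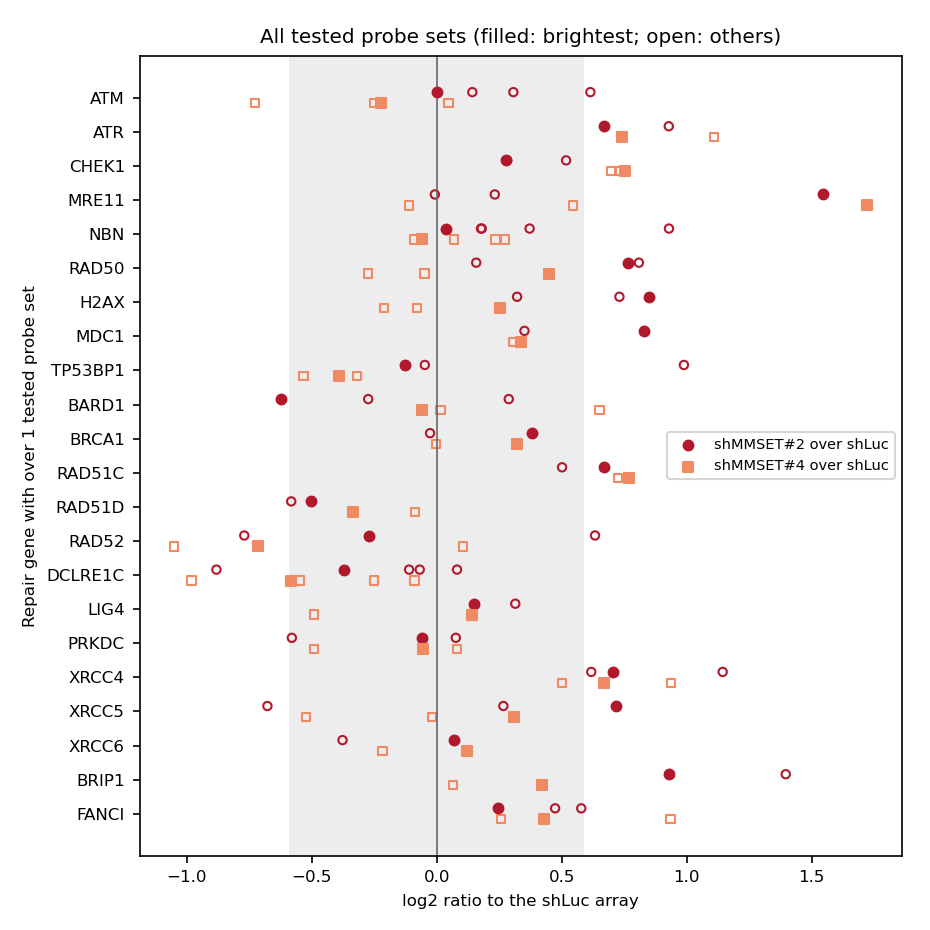
Log2 ratio to the shLuc array (horizontal axis) of every tested probe set of the 22 repair genes with over 1, for shMMSET#2 (circles) and shMMSET#4 (squares); filled symbols are the brightest probe set and open symbols the others. ATR, CHEK1, MDC1, RAD51C, RAD51D, XRCC4, BRIP1 and FANCI have all symbols on 1 side of 0, whereas the open symbols of MRE11 lie far left of the filled ones.

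Agreement between probe sets differed between the genes. The members had 77 tested probe sets, and 22 genes had over 1. For 8 of these 22 every probe set had the same sign with both hairpins: ATR, CHEK1, MDC1, RAD51C, XRCC4, BRIP1 and FANCI were higher and RAD51D was lower, as deposited. How often all tested genes with over 1 probe set agree in this way was not counted. The value of MRE11 depended most on the probe set, since the mean over its 3 probe sets gave log2 ratios of 0.59 with shMMSET#2 and 0.72 with shMMSET#4, against 1.55 and 1.72 on the brightest. DNA2, RAD54L and RAD54B had 1 tested probe set each.

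Other genes of the same pathways, from a list of 88, were also more often higher than lower. Of 81 tested, 24 passed 1.5-fold upward with shMMSET#2 and 4 downward, and with shMMSET#4 the counts were 23 and 4. The same sizes were passed by 16.2% and 22.5% of tested genes with shMMSET#2 and by 17.3% and 20.6% with shMMSET#4. The median log2 ratio was 0.26 with each hairpin. With both hairpins, 15 were higher and 2 were lower, beside 8.6% and 11.9% of tested genes. The 5 highest by the smaller ratio were RMI2, RMI1, WDR48, RTEL1 and FAAP100. RMI2 had signals of 3069 with shMMSET#2 and 3186 with shMMSET#4, against 960 with shLuc, and RMI1 had 2428 and 2666 against 1131. Both encode partners of BLM in the complex that dissolves double Holliday junctions, and they were 3.20-fold and 3.32-fold higher (RMI2) and 2.15-fold and 2.36-fold higher (RMI1).

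WDR48, the activator of the FANCD2 deubiquitinase USP1, had the ratios 2.69-fold and 2.05-fold on the probe set with most signal, and its 4 tested probe sets disagreed in sign with shMMSET#2. RTEL1, a helicase that unwinds recombination intermediates, was 1.88-fold and 2.50-fold higher on a dim _x_at probe set (signals of 129 with shMMSET#2 and 171 with shMMSET#4, against 68.4 with shLuc). RTEL1 passed the filter on dim genes through the MMSET hairpin arrays alone, so a higher value with them was built into its inclusion, and a floor at the 60th percentile took its log2 ratios to 0.13 and 0.54 and ended the call. FAAP100, a Fanconi core subunit, was 1.83-fold and 3.31-fold higher. The lowest were ABRAXAS1 (1.58-fold and 2.35-fold lower), ETAA1 (1.52-fold and 1.82-fold), SMARCAL1 (1.41-fold and 1.39-fold), BOD1L1 (1.37-fold and 1.65-fold) and SLX4 (1.31-fold and 1.81-fold). ABRAXAS1 is the scaffold of a BRCA1 complex at ubiquitinated chromatin. ETAA1, which activates ATR, had 402 with shMMSET#2 and 335.5 with shMMSET#4, against 611 with shLuc. Among genes chosen after their values were seen, the fork protection pair TIMELESS (1.85-fold and 1.70-fold) and TIPIN (1.88-fold and 1.77-fold) were higher with both hairpins, as were the nuclease gene ERCC4 (1.93-fold and 1.74-fold) and UBE2T, the E2 enzyme of FANCL (1.57-fold and 1.63-fold). CLSPN, the adaptor of CHEK1 and also chosen in this way, was 1.62-fold and 2.37-fold higher on the brighter of its probe sets, whereas the other tested probe set was lower, with log2 ratios of -0.91 and -0.22.

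Many repair genes are transcribed in late G1 and S phase, and genes of that phase were higher too. Of 39 tested G1/S genes, none of which is on either repair list, 25 passed 1.5-fold upward with shMMSET#2 and 2 downward, and with shMMSET#4 the counts were 25 and 0, beside 16.2% (higher) and 22.5% (lower) of tested genes with shMMSET#2 and 17.3% and 20.6% with shMMSET#4. Their median log2 ratios were 0.73 and 0.93, and their summed signal was 152407 with shMMSET#2 and 192629 with shMMSET#4, against 122882 with shLuc. Of 36 G2/M genes, 2 were higher and 3 lower with shMMSET#2 and 1 was higher and 5 lower with shMMSET#4, with medians of -0.07 and -0.16. Median scaling turned these G2/M medians to 0.25 and 0.22, beside 0.25 and 0.34 for all tested genes. The summed signal of the 37 repair genes with a probe set was 81280 with shMMSET#2 and 78667 with shMMSET#4, against 66234 with shLuc. Bright genes such as XRCC5 and H2AX weigh most in this sum, so it does not describe the list gene by gene. The part of the G1/S genes' difference in that of the repair genes was not tested.

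**Figure D4:**
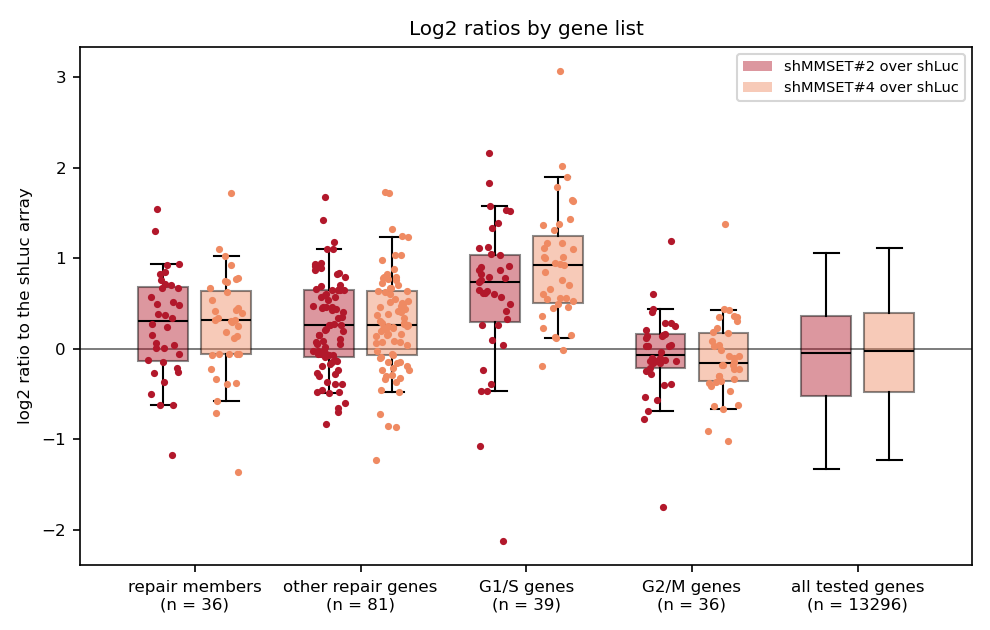
Log2 ratio to the shLuc array (vertical axis) with shMMSET#2 and shMMSET#4 for the 36 repair members, 81 other repair genes, 39 G1/S genes, 36 G2/M genes and all 13296 tested genes; boxes span the quartiles with the median, whiskers the 5th to 95th percentile, and points are genes. The repair lists have medians of 0.26 to 0.31, between the G1/S lists at 0.73 and 0.93 and all genes near 0.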

How the data were processed

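Biotin-labelled RNA of 3 KMS11 samples was hybridised to Affymetrix arrays, per the labels' protocols. The deposited values are MAS5 intensities, linear signals per probe set, made by the authors with MAS5 per the submitters' processing notes and analysed in GeneSpring per the series' design text; no version or setting is given in the sources used here. An HG-U133 A array is named there, whereas the table's 54675 probe sets carry HG-U133 Plus 2.0 identifiers. The 2% trimmed mean was 500.1 on each array, so no rescaling was done.

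After removal of 62 control probe sets, 41091 had 1 symbol, 1801 had several and 11721 had none here. Symbols were updated by Entrez identifier through RefSeq (GRCh38.p14). A floor at the 40th percentile of the pooled signals, 41.2, was set before log2 transformation, and ratios of each MMSET hairpin to shLuc were called at 1.5-fold. With 1 array a group there is no replicate error and no p-value, and the count of arrays limits how precise a ratio is. The hairpins, which differ in sequence, were not treated as replicates. Members, role groups, lists and alternatives were chosen with earlier results of these data known. All members were to be named, with the 5 highest and 5 lowest other repair genes ranked by whichever ratio was nearer 0, where both had 1 sign. The alternatives covered scaling, floor, filter, probe set choice and threshold. The steps were tested on simulated data. Python 3.11.15, numpy 2.4.6, pandas 2.3.3 and matplotlib 3.10.9 were used.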

Additional observations from a re-analysis of the deposited data

How the results depend on the processing

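No paired analysis was possible because each group had 1 array. The alternatives were chosen with earlier results of these data known. Over 10 changes of scaling, floor, filter and probe set, the median log2 ratio of the repair genes stayed above 0 with each hairpin. The changes of floor and the filter on the mean signal returned the reported medians unchanged, so they add no support. With thresholds of 2-fold and 3-fold included, 83 of 128 recomputed values moved by no more than 1.5-fold (counts) or 0.1 (medians). These 83 include values that a setting could hardly move. DNA2 kept its call with both hairpins in 10 of 10 settings and RAD51C in 9 of 9. DNA2 has 1 probe set, so the choice of probe set could not change its call. Both genes lay well above the floors, so the floor and filter settings could not change their ratios. For these settings a kept call is therefore no support. ATR lost it under the mean over all probe sets, MRE11 and XRCC4 under the median over probe sets above the floor, XRCC4 also under the mean, MRE11 also without _x_at and _s_at probe sets, and RAD54B with the higher floor. The rest moved as follows.

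Scaling to the same median signal gave 19 repair genes higher with both hairpins, 19 higher and 1 lower with shMMSET#2, 21 higher and 1 lower with shMMSET#4, medians of 0.63 and 0.69, and 35 other repair genes higher and 0 lower with both. All tested genes moved too: 30.1% were then higher and 13.2% lower with shMMSET#2, 34.7% and 10.1% with shMMSET#4, and 19.7% and 5.28% with both. Quantile normalization gave 1 other repair gene lower with both, beside 8.84% of tested genes. With a floor at the 60th percentile, 0 repair genes were lower with both and 1 with shMMSET#4, beside 6.68% and 12.4% of tested genes. Under a 75th percentile filter the counts were 0 and 0, beside 7.31% and 14.0%. With the mean over all probe sets, 3 repair genes were higher with both, 6 with shMMSET#2 and 6 with shMMSET#4. The shares of tested genes were 5.85%, 11.6% and 11.9%. With shMMSET#4, 1 repair gene was lower, beside 16.1% of tested genes. The median with shMMSET#4 was 0.17, beside -0.06 for all tested genes. Without _x_at and _s_at probe sets 28 repair genes were tested, of which 2 were higher with both, 5 with shMMSET#2 and 6 with shMMSET#4. These counts were near the 8.10%, 16.1% and 16.2% of tested genes. The medians were 0.15 and 0.16, beside -0.06 with each hairpin for all tested genes. With both hairpins 1 other repair gene was lower, beside 13.7% of tested genes. There XRCC5 turned to -0.68 with shMMSET#2 and MRE11 to -0.11 with shMMSET#4, because dimmer probe sets stood for these genes. With the median over probe sets above the floor, 3 were higher with both and 1 was lower with shMMSET#4. These stand beside 6.65% and 19.1% of tested genes. The median with shMMSET#4 was then 0.16, beside -0.06 for all tested genes.

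At 2-fold, 1 repair gene was higher with both, 2 were higher and 1 lower with shMMSET#2, 3 were higher and 1 lower with shMMSET#4, 3 other repair genes were higher and 0 lower with both, and 0 differed between the hairpins, beside 5.69% and 10.7% of tested genes with shMMSET#2, 6.74% and 8.95% with shMMSET#4, 2.83% and 4.35% with both, and 10.3% between the hairpins. At 3-fold, 0 were higher and 0 lower with both, 0 higher and 0 lower with shMMSET#2, 1 higher and 0 lower with shMMSET#4, 1 other repair gene was higher and 0 lower with both, and 0 differed between the hairpins, beside 1.31% and 2.65% with shMMSET#2, 1.67% and 1.96% with shMMSET#4, 0.662% and 0.782% with both, and 2.11% between the hairpins. Signals of RAD54B, RAD51D and RAD52 were dim, which limits their ratios.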

Other observations

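The markers of other cell types held 1 value that stands out. EPCAM, an adhesion gene of epithelia, had signals of 4391 with shMMSET#2 and 10651 with shMMSET#4, against 8099 with shLuc, beside keratin signals of 99.8 to 350 (KRT8 and KRT18). The T cell marker CD3E had 78.2 and 76.4 against 104.8 with shLuc, CD3D had 39.4 and 37.0 against 91.3, and CD3G had 3.52 and 5.02 against 40.1. All CD3G values, and those of CD3D with the MMSET hairpins, lay under the floor of 41.2, so their differences are not read here. The erythroid gene HBB had 196 and 237 against 307. Each value is from 1 probe set.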
